A study of Mus musculus with 8 samples.

Results

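The EGF ligands and ERBB receptors were followed in kidney RNA of diabetic mice given recombinant FGF4 (rFGF4) or vehicle. They were chosen by name as the rows of the deposited gene table for 6 ligands that bind the EGF receptor (*Egf*, *Hbegf*, *Areg*, *Ereg*, *Btc*, *Tgfa*) and the 4 receptors of the family (*Egfr*, *Erbb2*, *Erbb3*, *Erbb4*), 10 genes of the 55401 in the table. All 10 were found, and 9 passed the filter on low values. *Ereg* did not.

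Kidneys of 4 rFGF4-treated mice (numbered 1, 2, 3 and 5) and 4 vehicle-treated mice (numbered 2, 3, 4 and 5) were sequenced, with 1 library per mouse, to ask what rFGF4 changes in the diabetic kidney. The sample labels name the control group as *db*/*db* model and the other as rFGF4 treatment, so both groups are taken as *db*/*db* mice, which lack a working leptin receptor and become obese and diabetic. In the study these are male C57BLKS/J mice, and rFGF4 is human FGF4 shortened at its N terminus, made in bacteria and injected into the abdomen every other day, with PBS as the vehicle. The study's text places the sequencing in mice made diabetic with streptozotocin instead, and the values cannot settle which model was used. The labels give no age, dose or duration, and no non-diabetic kidney was analysed here.

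EGF family ligands are made as membrane-anchored precursors that proteases cut free, and they bind ERBB receptors on the same or neighbouring cells. EGFR binds all 6 ligands, ERBB4 binds neuregulins and some of the 6, ERBB3 binds neuregulins but has little kinase activity of its own, and ERBB2 binds no ligand and pairs with the others. In the kidney, *Egf* is made by the thick ascending limb and distal convoluted tubule, where EGF is known as a hormone of magnesium reabsorption, whereas HB-EGF, amphiregulin and TGF-alpha are known as ligands produced after tubular injury.

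Values are FPKM, sequenced fragments scaled to the length of the transcript and to the size of the library, so that levels can also be compared between genes. Since no counts are given, sequencing depth and the counting error behind each FPKM are not known. Summed FPKM was 389407 to 529835 in the rFGF4 group and 481321 to 552604 in the vehicle group. Mitochondrial transcripts made up 19.0%, 24.7%, 29.8% and 36.0% of it in rFGF4 mice 1, 2, 3 and 5 and 38.4%, 34.2%, 37.2% and 24.4% in vehicle mice 2, 3, 4 and 5. In 2 libraries expression stood apart. On the first principal component, which held 54.4% of the variance, rFGF4 mouse 1 (-64.6) and vehicle mouse 5 (-60.1) lay away from the other 6 (-15.9 to 44.4). Macrophage marker transcripts summed to 1269 FPKM in rFGF4 mouse 1 and 1803 in vehicle mouse 5, against 46.8 to 458.2 in the others. The members' differences are therefore also given without rFGF4 mouse 1, and without vehicle mouse 5 or both where that bears on the value. The labels' protocol speaks of an adipose type, but the sums of 4 adipose markers were 0.0004 to 0.579 FPKM, whereas *Umod*, the uromodulin gene of the thick ascending limb, was at 654.0 FPKM or more in every library.

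*Egf* was the most abundant of the 10 genes in 7 of the 8 libraries, followed by the receptors *Erbb2* and *Erbb3*. In rFGF4 mouse 1 *Egf*, at 14.5 FPKM, was below both *Erbb2* (19.5) and *Erbb3* (18.8). Over the 8 libraries *Egf* averaged 76.7 FPKM ± 31.9 (SD, n = 8), higher than 96.2% of the genes tested. *Erbb2*, at 13.9 FPKM ± 2.43 (SD, n = 8), and *Erbb3*, at 13.0 FPKM ± 3.35 (SD, n = 8), did not separate, since *Erbb2* was the higher of the pair in 4 of the 8 libraries. *Egfr* followed at 5.23 FPKM ± 1.10 (SD, n = 8) and stayed below *Erbb3* in all 8. *Hbegf* (mean 2.74 FPKM), *Btc* (1.16), *Tgfa* (0.957), *Erbb4* (0.866), *Areg* (0.758) and *Ereg* (0.118) came after, each overlapping the next in range. *Egf* made up 91.2% to 97.4% of the FPKM of the 6 ligands in 7 libraries and 55.9% in rFGF4 mouse 1.

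**Figure D1:**
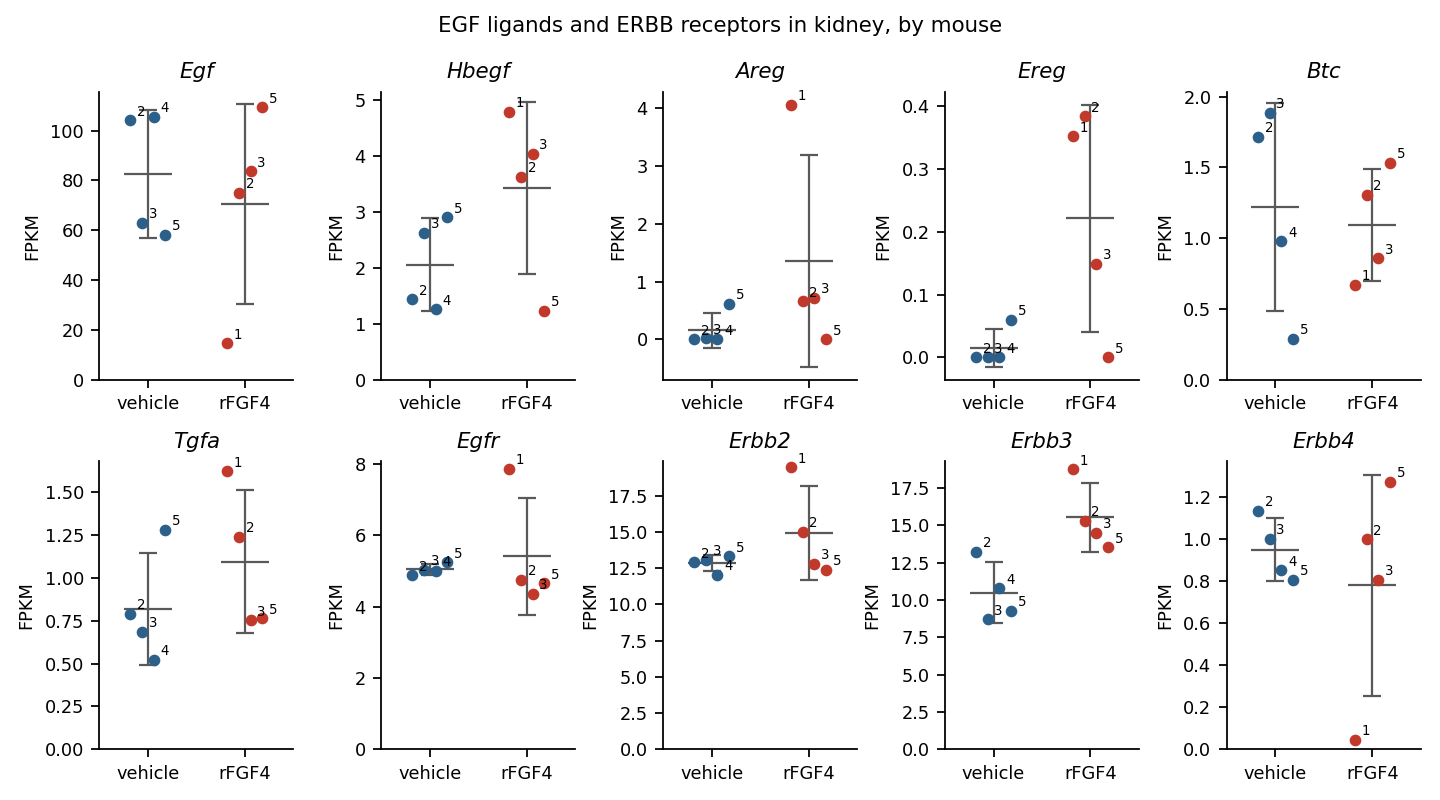
FPKM of each of the 10 genes (vertical axes, linear) in vehicle (blue) and rFGF4 (red) kidneys, with each mouse's number beside its point. The line and bars are the mean ± SD of 4 mice. The groups are apart for *Erbb3* only, and rFGF4 mouse 1 is the lowest of its group for *Egf* (14.5 FPKM) and *Erbb4* (0.046 FPKM).

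Between treatments, *Erbb3* was the single member that rose at an unadjusted p under 0.05. Of the 9 members tested by limma on log2(FPKM + 1), 6 had a higher mean with rFGF4 and 3 a lower one. Their median log2 fold change was 0.18, against 0.086 over the 15150 genes tested, of which 67.1% had a log2 fold change above 0. Without rFGF4 mouse 1 these medians were 0.083 and 0.010. The 1 member of 9 at an unadjusted p under 0.05 stood beside 4.62% of all genes tested (700), 3.56% of all genes being called as higher with rFGF4 and 1.06% as lower. None of the 9 reached the study's threshold, which asks for an unadjusted p under 0.05 together with a rise to 1.5-fold or more or a drop to 0.67-fold or less. Of the genes tested, 1.53% (232) did. Members reached it in other fits, *Erbb3* without vehicle mouse 2 (0.64), without rFGF4 mouse 5 (0.59) and scaled over nuclear genes (0.65), and *Hbegf* and *Areg* without rFGF4 mouse 5 or with array weights. None of the 15150 genes tested passed a Benjamini-Hochberg adjusted p of 0.05 in limma, and the smallest adjusted p was 0.918. A fold change on this scale understates the change of genes at low FPKM.

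**Figure D2:**
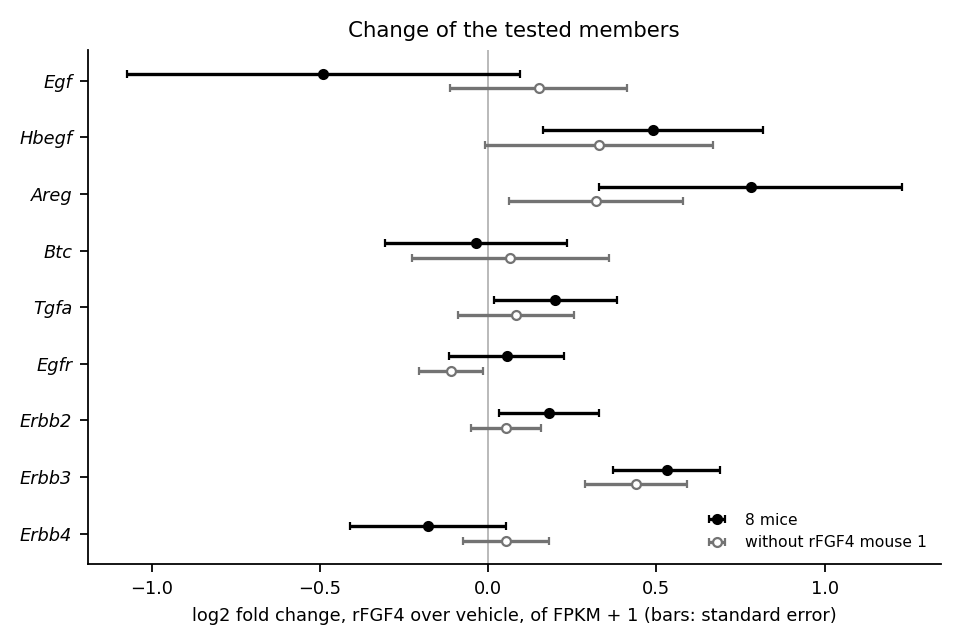
Log2 fold change, rFGF4 over vehicle, of FPKM + 1 (horizontal axis) for the 9 members tested, with bars of 1 standard error. Filled points are from all 8 mice and open points leave out rFGF4 mouse 1. *Erbb3* is at 0.53 and 0.44, while *Egf* goes from -0.49 to 0.15.

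*Erbb3*, the receptor that signals by recruiting phosphatidylinositol 3-kinase when paired with ERBB2, was at 18.8, 15.3, 14.5 and 13.5 FPKM in rFGF4 mice 1, 2, 3 and 5. In vehicle mice 2, 3, 4 and 5 it was at 13.2, 8.71, 10.8 and 9.28 FPKM. Every treated mouse was above every vehicle mouse, though rFGF4 mouse 5 and vehicle mouse 2 lay close together. The means were 15.5 FPKM ± 2.29 (SD, n = 4) and 10.5 FPKM ± 2.03 (SD, n = 4). The log2 fold change was 0.53 ± 0.159 (SE), a fold of 1.44 with a 95% interval of 0.17 to 0.89 on the log2 scale (limma, unadjusted p = 0.00975, adjusted p = 0.918). The two-sided exact permutation p was 0.0286, the smallest that 4 mice against 4 allow. Groups that did not overlap were found for 3.33% of all genes tested, 2.66% being higher with rFGF4.

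The difference in *Erbb3* was 0.44 without rFGF4 mouse 1 (limma, unadjusted p = 0.0217, adjusted p = 1.0; exact permutation p = 0.0571) and 0.48 without vehicle mouse 5 (limma, unadjusted p = 0.0275, adjusted p = 0.62). Without both it was 0.39 (limma, unadjusted p = 0.0473, adjusted p = 0.753). With any single library left out, the unadjusted limma p stayed between 0.00375 and 0.029. Among the treated mice, *Erbb3* was higher where the mitochondrial share was lower. Vehicle mouse 5, with a share of 24.4%, had the next to lowest *Erbb3* of all. The part of the mitochondrial share in the *Erbb3* difference was not tested. Scaled to an equal sum over nuclear genes, the difference was 0.65 (limma, unadjusted p = 0.00775), beside a median of 0.19 over all genes in that fit. Under median-ratio scaling it was 0.41 (limma, unadjusted p = 0.0359), beside a median of -0.0093. *Erbb3* lies on chromosome 10 (chr10:128567523-128589652, minus strand, GRCm38) and none of its annotated exons overlaps those of another gene.

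*Erbb2*, the partner receptor without a ligand, was at 19.5, 15.0, 12.8 and 12.4 FPKM in rFGF4 mice 1, 2, 3 and 5 and at 12.9, 13.1, 12.1 and 13.3 FPKM in vehicle mice 2, 3, 4 and 5. Mice 1 and 2 of the rFGF4 group were above all vehicle mice, and mice 3 and 5 lay among them. Its log2 fold change was 0.18 ± 0.149 (SE), with a 95% interval of -0.16 to 0.52 (limma, unadjusted p = 0.256, adjusted p = 0.92; exact permutation p = 0.314), and 0.054 without rFGF4 mouse 1 (unadjusted p = 0.618, adjusted p = 1.0). Its exons on chromosome 11 (chr11:98412470-98437716, plus strand) overlap those of *Mien1* on the opposite strand. Strandedness of the library is not given in the sources used here, so reads of the overlap could belong to either gene. The same limit holds for *Egf*, *Ereg* and *Tgfa*, whose exons also overlap those of genes on the opposite strand. *Erbb3* accounted for 42.6% ± 1.64 (SD, n = 4) of all receptor FPKM in the rFGF4 group and for 35.6% ± 4.62 (SD, n = 4) in the vehicle group. The ratio of *Erbb3* to *Erbb2* was 0.965 to 1.13 in treated mice and 0.667 to 1.03 in vehicle mice, so the ranges overlapped at vehicle mouse 2.

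*Egfr*, the receptor of all 6 ligands, was at 7.87, 4.76, 4.36 and 4.66 FPKM in rFGF4 mice 1, 2, 3 and 5. In vehicle mice 2, 3, 4 and 5 it was nearly constant, at 4.88, 5.03, 5.01 and 5.25 FPKM. Mouse 1 was above all vehicle mice and the other 3 treated mice were below all of them. Over all 8 mice the log2 fold change was 0.055 ± 0.172 (SE), with a 95% interval of -0.34 to 0.45 (limma, unadjusted p = 0.759, adjusted p = 0.971). Without rFGF4 mouse 1 it was -0.11 ± 0.0954 (SE; limma, unadjusted p = 0.278, adjusted p = 1.0), and the exact permutation p was 0.0286, as low as 3 mice against 4 can give. The mouse left out was singled out because it stands apart. The share of all genes that separate in this split was not computed, so the exact p cannot be set against a background. *Egfr* spans chr11:16752203-16918158 on the plus strand.

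*Erbb4*, the neuregulin receptor, was at 0.046, 1.001, 0.807 and 1.27 FPKM in rFGF4 mice 1, 2, 3 and 5 and at 1.14, 1.004, 0.854 and 0.808 FPKM in vehicle mice 2, 3, 4 and 5. Mouse 1 was far below the other 7, at 4.63% of their median, and the remaining mice of both groups intermingled. *Erbb4* differed by a log2 fold change of -0.18 ± 0.232 (SE; 95% interval -0.72 to 0.35; limma, unadjusted p = 0.449, adjusted p = 0.932), and 0.053 without rFGF4 mouse 1 (unadjusted p = 0.69, adjusted p = 1.0).

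*Egf*, the gene of the prepro-EGF protein of the distal tubule, was at 14.5, 75.0, 83.7 and 109.4 FPKM in rFGF4 mice 1, 2, 3 and 5. It was at 104.1, 63.0, 105.6 and 58.2 FPKM in vehicle mice 2, 3, 4 and 5. Mouse 1 was at 17.4% of the median of the other 7, whose 2 groups covered much the same range. The means were 70.7 FPKM ± 40.2 (SD, n = 4) with rFGF4 and 82.7 FPKM ± 25.6 (SD, n = 4) with vehicle. This gave a log2 fold change of -0.49 ± 0.585 (SE), with a 95% interval of -1.83 to 0.86 (limma, unadjusted p = 0.43, adjusted p = 0.931; exact permutation p = 0.714). Its sign depended on rFGF4 mouse 1: without that mouse it was 0.15 (limma, unadjusted p = 0.598, adjusted p = 1.0), and without both mice that stand apart -0.0037 (unadjusted p = 0.989, adjusted p = 0.997).

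In rFGF4 mouse 1 other transcripts of the *Egf*-producing segments were low too, though not all of them (the markers named here were chosen after their values were seen). This mouse was the lowest of the 8 for 7 of 12 markers, among them *Slc12a3*, the thiazide-sensitive cotransporter (23.3% of the median of the other mice), *Pvalb*, the calcium-binding parvalbumin of the distal convoluted tubule (5.72%), and *Slc12a1*, the loop-diuretic-sensitive cotransporter (45.3%). *Umod* was at 81.6%, and *Trpm6*, the magnesium channel, at 199.0%. The sum of 8 proximal tubule markers was also lower in this mouse, 424.3 FPKM against 1091 to 1855 in the others. In bulk kidney RNA, fewer cells of a type and less RNA per cell cannot be told apart.

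Set against the mean log2(FPKM + 1) of the 12 markers, *Egf* was at -0.46 in rFGF4 mouse 1 and at 0.66 to 1.49 in the other 7. *Egf* was thus further below the other mice in mouse 1 than the average marker was. On this relative log2 scale the groups were at 0.79 ± 0.861 (SD, n = 4) with rFGF4 and 1.09 ± 0.37 (SD, n = 4) with vehicle, a difference of -0.30 (exact permutation p = 0.657). Without rFGF4 mouse 1 the difference was 0.11 (exact permutation p = 0.714). Of 9 genes of distal magnesium handling, 8 were tested, 2 had a higher mean with rFGF4, none passed an unadjusted p of 0.05, and the median log2 fold change was -0.056. The most abundant, *Fxyd2*, a regulator of the sodium pump, differed by -0.17 ± 0.279 (SE; limma, unadjusted p = 0.555, adjusted p = 0.949; 0.084 without rFGF4 mouse 1), and *Cldn19*, a tight junction protein of the thick ascending limb, by -0.012 (limma, unadjusted p = 0.965, adjusted p = 0.997).

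**Figure D3:**
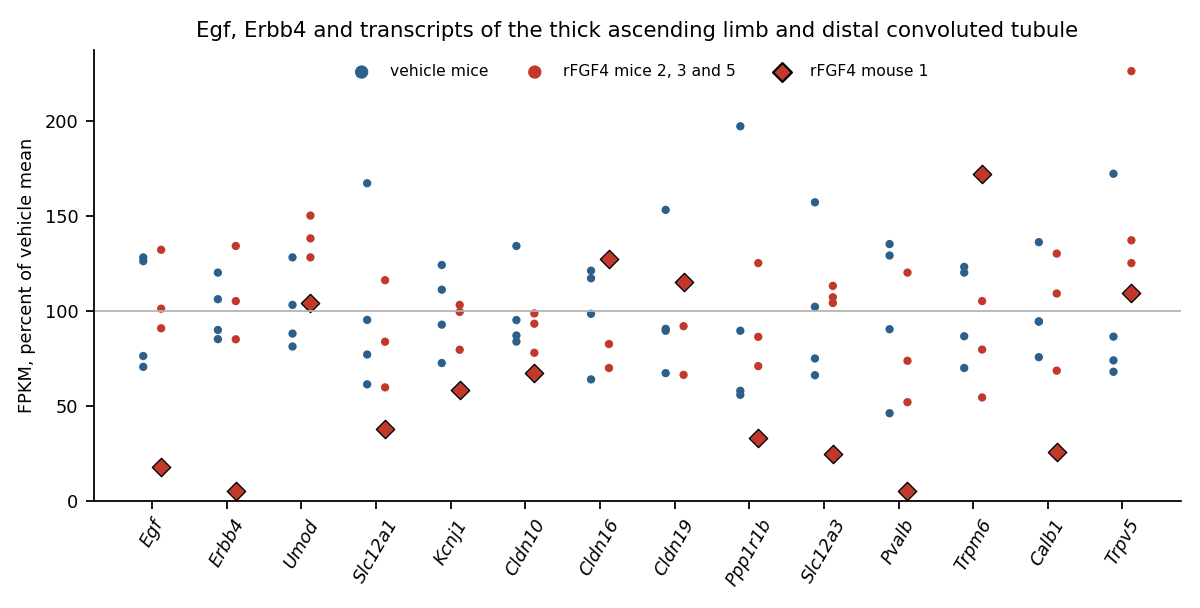
FPKM as a percent of the vehicle mean (vertical axis) for *Egf*, *Erbb4*, 7 markers of the thick ascending limb and 5 of the distal convoluted tubule, by mouse. Blue points are vehicle mice, red points rFGF4 mice 2, 3 and 5, and diamonds rFGF4 mouse 1, which sits at 17.6% for *Egf*, 4.87% for *Erbb4* and 172.0% for *Trpm6*.

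A RefSeq promoter of *Egf*, the entry nearest the annotated gene start, and that of *Areg* are shown as those of a ligand that was high in most libraries, *Egf*, and of a ligand that was at 0.0196 FPKM or less in 4 of the 8, *Areg*. The 250 bases before each start are given on the gene's strand (GRCm38.p6), at chr3:129755323-129755572 on the minus strand for *Egf* and chr5:91139349-91139598 on the plus strand for *Areg*. Capitals mark matches to the motifs searched.
Egf: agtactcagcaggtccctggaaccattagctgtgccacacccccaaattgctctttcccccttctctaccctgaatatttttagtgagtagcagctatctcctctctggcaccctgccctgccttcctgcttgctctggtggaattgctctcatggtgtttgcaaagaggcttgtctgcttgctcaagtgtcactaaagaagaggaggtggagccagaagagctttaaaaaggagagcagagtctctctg
Areg: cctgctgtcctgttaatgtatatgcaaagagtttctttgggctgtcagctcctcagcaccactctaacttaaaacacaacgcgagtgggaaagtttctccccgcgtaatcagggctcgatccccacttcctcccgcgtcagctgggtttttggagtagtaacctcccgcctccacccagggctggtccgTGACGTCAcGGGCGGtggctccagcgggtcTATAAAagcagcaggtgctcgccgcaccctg
Both strands were searched for a cAMP response element (TGACGTCA), an AP-1 site (TGANTCA), a GC box (GGGCGG) and a TATA box (TATAAA). The *Areg* window held the cAMP response element from 61 bases, the GC box from 52 and the TATA box from 31 bases before the start, with no overlap among them. Of 32851 promoters of the same length, 1.55% held the cAMP response element, 6.75% the AP-1 site, 32.7% the GC box and 12.4% the TATA box. The *Egf* window shown held none of the 4 and no CpG, and that of *Areg* held 15 CpG. A further RefSeq entry for *Egf*, at chr3:129725087-129725336 and 30230 bases from the annotated gene start, also held none of the 4 motifs but 15 CpG. A match is a description of the letters, not a site shown to be bound.

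*Hbegf*, *Areg*, *Ereg* and *Tgfa* had higher means with rFGF4, but none separated from vehicle. *Hbegf*, the heparin-binding ligand, was at 4.79, 3.63, 4.04 and 1.23 FPKM in rFGF4 mice 1, 2, 3 and 5, and at 1.44, 2.63, 1.26 and 2.90 FPKM in vehicle mice 2, 3, 4 and 5. Mice 1, 2 and 3 of the rFGF4 group were above all vehicle mice and mouse 5 was the lowest of the 8. The log2 fold change was 0.49 ± 0.327 (SE; 95% interval -0.26 to 1.24; limma, unadjusted p = 0.172, adjusted p = 0.918; exact permutation p = 0.229). It was 0.33 without rFGF4 mouse 1 (unadjusted p = 0.363, adjusted p = 1.0) and 0.79 without rFGF4 mouse 5 (limma, unadjusted p = 0.0114), the mouse on which the call depended.

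*Areg*, which encodes amphiregulin, was listed at 4.05, 0.655, 0.722 and 0.0001 FPKM in rFGF4 mice 1, 2, 3 and 5. In vehicle mice 2, 3, 4 and 5 it was listed at 0.0001, 0.0196, 0.0001 and 0.616 FPKM. The value 0.0001 recurs in the table and was taken as a floor that stands for 0, although 134 values in the table are lower. It was clearly above the floor in 3 treated mice and 1 vehicle mouse, and these 4 libraries alone carried it past the filter. The log2 fold change was 0.78 ± 0.45 (SE; 95% interval -0.25 to 1.81; limma, unadjusted p = 0.119, adjusted p = 0.918; exact permutation p = 0.143). It was 0.32 without rFGF4 mouse 1 (unadjusted p = 0.25, adjusted p = 1.0), 0.49 without both mice that stand apart (unadjusted p = 0.0677, adjusted p = 0.753) and 1.10 without rFGF4 mouse 5 (unadjusted p = 0.0314).

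*Ereg*, which encodes epiregulin, was listed at 0.353, 0.384, 0.149 and 0.0001 FPKM in rFGF4 mice 1, 2, 3 and 5, at 0.0596 FPKM in vehicle mouse 5 and at the floor in the other 3 vehicle mice. It was too low for the limma fit. The difference of the means of log2(FPKM + 1) was 0.26 (exact permutation p = 0.143). *Ereg* (chr5:91074622-91093646) and *Areg* (chr5:91139599-91148432) are neighbours on the plus strand of chromosome 5. With *Epgn* (epigen) on 1 side and *Btc* on the other they form a group of 4 ligand genes within 376 kb, from 91027464 to 91402994. *Epgn* was at 0.0552 FPKM or less in every library.

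The 4 mice with the highest *Hbegf* and *Areg*, rFGF4 mice 1, 2 and 3 and vehicle mouse 5, also had the highest sums of immediate early transcripts. The sum of 7 tubular injury genes was 1060, 346.0, 161.5 and 105.7 FPKM in rFGF4 mice 1, 2, 3 and 5, and 97.8, 247.1, 85.5 and 374.4 FPKM in vehicle mice 2, 3, 4 and 5. The sum of 8 immediate early genes, which respond within minutes to a stimulus, was 150.0, 150.6, 120.7 and 26.1 FPKM in the treated mice and 22.2, 53.0, 22.2 and 104.3 FPKM in the vehicle mice, in the same orders. In the injury sum, rFGF4 mouse 3 lay below vehicle mice 3 and 5 although its *Hbegf* was higher than theirs. The lowest 3 mice for *Hbegf*, the immediate early sum and the injury sum were rFGF4 mouse 5 and vehicle mice 2 and 4. All 7 injury genes and all 7 immediate early genes that were tested had higher means with rFGF4, with medians of 1.01 and 0.86 on the log2 scale, and none passed an unadjusted p of 0.05. Without rFGF4 mouse 1 these medians were 0.30 and 0.79. Without vehicle mouse 5 they were 1.71 and 1.19, and 3 immediate early genes passed (*Junb*, *Egr1* and *Ier2*, limma, unadjusted p of 0.0315, 0.0227 and 0.0456), none of them without both mice that stand apart. The fit without vehicle mouse 5 called 786 of 15150 genes as higher. The part of these states in the ligand levels was not tested.

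Of the most abundant injury genes, *Lcn2*, a secreted iron-carrier protein, differed by 1.01 ± 1.37 (SE; limma, unadjusted p = 0.481, adjusted p = 0.939) and *Krt8*, a keratin, by 0.34 ± 0.326 (SE; limma, unadjusted p = 0.332, adjusted p = 0.924). *Havcr1*, the kidney injury molecule KIM-1, and *Egr1*, an immediate early transcription factor, were chosen for plotting after their values were seen. *Havcr1* was at 279.6, 59.8, 42.2 and 0.675 FPKM in the treated mice and at 0.0888, 15.4, 0.555 and 41.7 FPKM in the vehicle mice. *Egr1* was at 16.1, 26.3, 24.8 and 1.36 FPKM in the treated mice and at 2.04, 1.86, 0.865 and 9.37 FPKM in the vehicle mice.

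**Figure D4:**
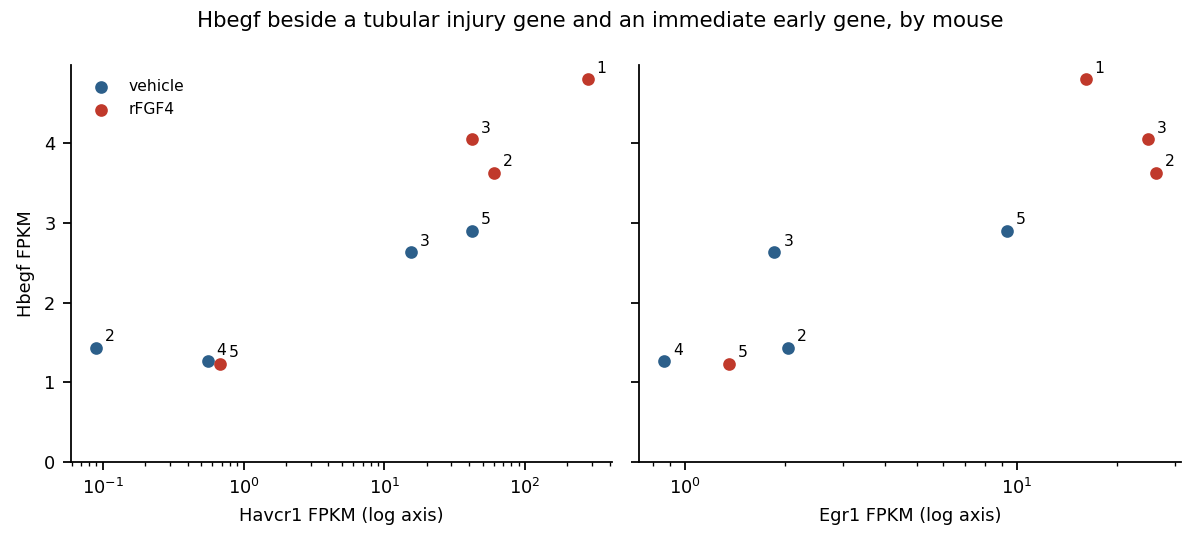
*Hbegf* FPKM (vertical axis, linear) against *Havcr1* FPKM (left) and *Egr1* FPKM (right), both on log axes, with 1 point per mouse and its number (red, rFGF4; blue, vehicle). The mice at the lowest *Hbegf*, 1.23 to 1.44 FPKM, are at 0.675 FPKM of *Havcr1* or less.

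*Tgfa*, which encodes TGF-alpha, was at 1.62, 1.24, 0.752 and 0.765 FPKM in rFGF4 mice 1, 2, 3 and 5 and at 0.790, 0.685, 0.522 and 1.28 FPKM in vehicle mice 2, 3, 4 and 5. It was highest in rFGF4 mouse 1 and vehicle mouse 5, the mice that stand apart. *Tgfa* differed by a log2 fold change of 0.20 ± 0.183 (SE; 95% interval -0.22 to 0.62; limma, unadjusted p = 0.308, adjusted p = 0.921), and 0.083 without rFGF4 mouse 1 (unadjusted p = 0.644, adjusted p = 1.0). *Btc*, which encodes betacellulin, was at 0.669, 1.31, 0.857 and 1.53 FPKM with rFGF4 and at 1.72, 1.89, 0.980 and 0.289 FPKM with vehicle, in the same orders. The range of the treated mice lay within that of the vehicle mice. Its log2 fold change was -0.036 ± 0.271 (SE; 95% interval -0.66 to 0.59; limma, unadjusted p = 0.899, adjusted p = 0.987). Its sign turned without rFGF4 mouse 1 (0.066, unadjusted p = 0.828, adjusted p = 1.0), and also without rFGF4 mouse 3 (0.015), vehicle mouse 2 (0.085) or vehicle mouse 3 (0.11).

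Around the receptors, most pathway genes had slightly higher means with rFGF4, and few passed the test. Across 4 lists of other ligands, ligand release, receptor inhibitors and adaptors, 44 of 52 genes were tested and 42 had a higher mean with rFGF4. Of all genes tested, 67.1% were higher. Without rFGF4 mouse 1, 34 of the 44 were higher, beside 7915 of 15150 genes. The median log2 fold change was 0.21, against 0.086 over all genes tested, and without rFGF4 mouse 1 it was 0.17 against 0.010. Of the 44, 3 passed an unadjusted p of 0.05 (background 4.62%) and 1 the study's threshold (background 1.53%). With each library scaled by its median ratio, 33 of the 44 were higher, beside 7260 of 15150 genes. The medians were then 0.12 for the lists and -0.0093 for all genes.

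Among 5 other ligands of the family, *Nrg1* (neuregulin 1) alone was abundant enough to test, at a log2 fold change of 0.19 ± 0.169 (SE; limma, unadjusted p = 0.293, adjusted p = 0.921). It was at 1.31 FPKM in rFGF4 mouse 1 and at 0.367 to 0.724 FPKM in the others. *Nrg2*, like *Nrg1* a ligand of ERBB3 and ERBB4, was at 0.195 FPKM or less in every library. *Nrg4*, a ligand of ERBB4, was at 0.413 to 0.619 FPKM, and *Nrg3* was listed at the floor in all 8 libraries.

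In ligand release, 7 of 9 genes were tested, all 7 with a higher mean in the rFGF4 group and none at an unadjusted p under 0.05. The median was 0.21. Fewer were higher without rFGF4 mouse 1 (5 of 7) and under median-ratio scaling (4 of 7, median 0.086). *Timp3*, an inhibitor of the shedding protease ADAM17, differed by 0.078 ± 0.168 (SE; limma, unadjusted p = 0.653, adjusted p = 0.956) and *Adam9* by 0.21 ± 0.121 (SE; limma, unadjusted p = 0.127, adjusted p = 0.918). Without vehicle mouse 5, 2 of the 7 passed, *Rhbdf2*, a cofactor of ADAM17 (0.79; limma, unadjusted p = 0.0101, adjusted p = 0.62), and *Adam10*. That fit called 786 of 15150 genes as higher at an unadjusted p under 0.05. *Adam10*, the protease that sheds EGF and betacellulin, was chosen after its values were seen for its large difference. It was at 23.6, 12.0, 9.47 and 6.23 FPKM in rFGF4 mice 1, 2, 3 and 5 and at 2.28, 1.42, 7.35 and 11.5 FPKM in vehicle mice 2, 3, 4 and 5. Vehicle mice 4 and 5 overlapped the treated range, and the log2 fold change of 1.22 ± 0.575 (SE) did not pass (limma, unadjusted p = 0.0656, adjusted p = 0.918). It passed without vehicle mouse 5 (1.63; unadjusted p = 0.0157, adjusted p = 0.62), without rFGF4 mouse 5 (unadjusted p = 0.045) and without both mice that stand apart (unadjusted p = 0.0341, adjusted p = 0.753), but not without rFGF4 mouse 1 (0.89; unadjusted p = 0.167, adjusted p = 1.0).

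All 16 receptor inhibitors and turnover genes had a higher mean with rFGF4 (median 0.22), and 2 passed an unadjusted p of 0.05. Of all genes tested, 67.1% were higher and 4.62% passed in either direction. Without rFGF4 mouse 1, 13 of the 16 were higher (median 0.14) and 1 passed. Under median-ratio scaling 13 were higher (median 0.12). *Errfi1*, the feedback inhibitor MIG6 that binds the kinase domain of EGFR, was at 142.2, 270.5, 358.1 and 73.4 FPKM in rFGF4 mice 1, 2, 3 and 5. It was at 79.6, 109.8, 70.1 and 58.3 FPKM in vehicle mice 2, 3, 4 and 5. Mice 1, 2 and 3 of the rFGF4 group were above all vehicle mice, while mouse 5 lay among them. The log2 fold change was 1.20 ± 0.47 (SE; limma, unadjusted p = 0.0333, adjusted p = 0.918; exact permutation p = 0.0857), at the study's threshold.

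The call for *Errfi1* was lost on leaving out rFGF4 mouse 2 or 3 or vehicle mouse 2, 4 or 5, with an unadjusted p of up to 0.0871, and under median-ratio scaling (unadjusted p = 0.0675). *Rnf41*, the ubiquitin ligase NRDP1 that targets ERBB3 for degradation, was at 5.46, 3.83, 3.77 and 4.66 FPKM with rFGF4 and at 3.11, 2.61, 2.87 and 3.85 FPKM with vehicle, in the same orders. Vehicle mouse 5 lay within the treated range. The log2 fold change was 0.40 ± 0.152 (SE; limma, unadjusted p = 0.0299, adjusted p = 0.918; exact permutation p = 0.0857), and the call was lost without rFGF4 mouse 1 or 5 or vehicle mouse 2, 3 or 4, with an unadjusted p of up to 0.0789.

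Of 22 receptor adaptors and effectors, 20 were tested, 18 had a higher mean with rFGF4 and the median was 0.21. Without rFGF4 mouse 1, 15 of the 20 were higher (median 0.17), and under median-ratio scaling also 15 (median 0.11). *Crk*, an SH2 and SH3 domain adaptor, passed at 22.9 FPKM ± 2.72 (SD, n = 4) against 18.7 FPKM ± 1.40 (SD, n = 4). Its log2 fold change was 0.28 ± 0.121 (SE; limma, unadjusted p = 0.0498, adjusted p = 0.918). This call was kept in 1 of the 8 fits that left out a library, that without rFGF4 mouse 5, and was lost in the other 7 (unadjusted p up to 0.12).

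The deposited table annotates 84 genes to the KEGG ErbB signaling pathway, all 10 members among them. Of 70 tested, 60 had a higher mean with rFGF4 (median 0.17), against 67.1% and a median of 0.086 over all genes tested. Without rFGF4 mouse 1 the medians were 0.075 and 0.010, and under median-ratio scaling 46 of the 70 were higher, with medians of 0.069 and -0.0093. Under that scaling 7260 of the 15150 genes tested were higher. An unadjusted p of 0.05 was passed by 4 of the 70 (background 4.62%), *Erbb3* and *Crk* being 2 of them. *Pak1*, a kinase activated by the small GTPases RAC1 and CDC42, was at 17.5, 13.4, 14.4 and 9.58 FPKM with rFGF4 and at 7.52, 6.65, 8.21 and 10.1 FPKM with vehicle, in the same orders. Only rFGF4 mouse 5 and vehicle mouse 5 overlapped. Its log2 fold change was 0.67 ± 0.194 (SE; limma, unadjusted p = 0.00781, adjusted p = 0.918), at the study's threshold. The unadjusted p stayed at 0.0242 or less with any library left out, but the threshold was missed without rFGF4 mouse 1 and under median-ratio scaling, in both at a log2 fold change of 0.56.

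**Figure D5:**
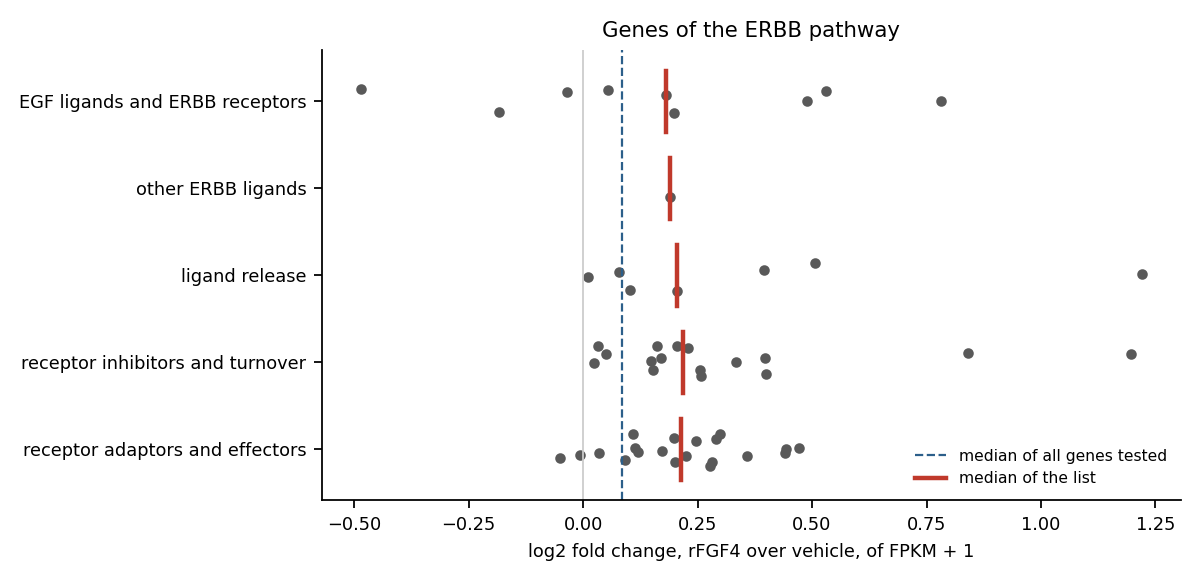
Log2 fold change, rFGF4 over vehicle, of FPKM + 1 (horizontal axis), with 1 point for each tested gene of the 10 members and of 4 lists of ERBB pathway genes. Red lines are the medians of the lists, 0.18 to 0.22, and the dashed line is the median of all genes tested, 0.086.

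Marker lists of kidney cell types describe what else moved between the groups. Of the tubular lists, the thick ascending limb (7 tested, 2 higher, median -0.23), distal convoluted tubule (5 tested, 1 higher, median -0.33), collecting duct (6 tested, 0 higher, median -0.22) and proximal tubule (8 tested, 1 higher, median -0.30) held no gene at an unadjusted p under 0.05. The proximal median turned to 0.18 and the distal convoluted tubule median to 0.018 without rFGF4 mouse 1, and *Umod* then passed as higher (0.49; limma, unadjusted p = 0.0386, adjusted p = 1.0). *Scnn1g*, a subunit of the epithelial sodium channel, passed as lower without vehicle mouse 5 (-0.58; limma, unadjusted p = 0.0229, adjusted p = 0.62) and without both mice that stand apart (-0.46; unadjusted p = 0.0378, adjusted p = 0.753). All 5 podocyte genes had a higher mean with rFGF4 and 1 passed, *Synpo*, an actin-binding protein of foot processes (0.87 ± 0.30, SE; limma, unadjusted p = 0.0195, adjusted p = 0.918). All 6 endothelial genes had a lower mean and 1 passed, *Tek*, the angiopoietin receptor (-0.38 ± 0.159, SE; limma, unadjusted p = 0.0424, adjusted p = 0.918). Of all genes tested, 67.1% were higher, 3.56% passed as higher and 1.06% passed as lower. The call for *Synpo* was lost without rFGF4 mouse 2 or 5 or vehicle mouse 3 (unadjusted p up to 0.0542). That for *Tek* was kept only without rFGF4 mouse 5 or vehicle mouse 3, and was lost in the other 6 fits that left out a library (unadjusted p up to 0.106).

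None of the macrophage (7 tested, 7 higher, median 0.44), B and plasma cell (4 tested, 2 higher, median -0.27), T cell (1 tested, 0 higher), red blood cell (5 tested, 0 higher, median -1.97) or urothelial genes (4 tested, 1 higher, median -0.61) passed an unadjusted p of 0.05. The macrophage median was -0.067 without rFGF4 mouse 1 and 1.45 without vehicle mouse 5. The B and plasma cell median was -0.74 without rFGF4 mouse 1 and 1.08 without vehicle mouse 5, whose sum of 22910 FPKM compared with 24.0 to 2716 in the others. The T cell gene turned to 0.36 without vehicle mouse 5. The red blood cell median was -1.13 without rFGF4 mouse 1 and -2.37 without vehicle mouse 5, and all 5 of these genes passed as lower without vehicle mouse 5 (limma, unadjusted p of 0.0413 to 0.0451, adjusted p = 0.62), in a fit that called 200 of 15150 genes as lower. Without both mice that stand apart the median was -1.54 and none passed. The part of cell makeup in the member levels was not tested. *Erbb3* was low in vehicle mouse 5, which had the highest macrophage sum, and highest in rFGF4 mouse 1, which had the next highest.

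For each member, the genes whose log2(FPKM + 1) followed it most closely over the 8 libraries are given by Pearson's r, as a description of libraries that share 2 treatments and 2 mice that stand apart. *Erbb3* was followed by *Pip4k2c* (r = 0.976, 0.972 without rFGF4 mouse 1), *Sptlc1* (0.974) and *Glg1* (0.97). *Hbegf* was followed by *Vmp1* (0.999, 0.998 without rFGF4 mouse 1), *Tmem199* (0.984) and *Gm22980* (0.983). *Egf* was followed by *Car14* (0.991, 0.934 without rFGF4 mouse 1), the proximal phosphate transporter *Slc34a1* (0.989) and *Aspg* (0.989). *Erbb2* was followed by *Ptk7* (0.991), and *Egfr* by *Zbtb14* (0.979, but 0.738 without rFGF4 mouse 1). The genes closest to the others were *Atp9a* for *Areg* (0.992), *Serpina1f* for *Btc* (0.973), *Stard13* for *Tgfa* (0.985) and *Gm6614* for *Erbb4* (0.991).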

How the data were processed

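Kidney poly(A) RNA of 4 rFGF4-treated and 4 vehicle-treated mice was sequenced in paired ends. Transcripts were assembled by the authors with StringTie and combined with gffcompare, and the authors deposited FPKM per gene for the 8 libraries, with fold changes, p-values and q-values of their own comparison, which were not used. The submitters' processing notes name mm8, Bowtie 0.12.2, HISAT2 2.0 and StringTie 1.3.0 without their roles. Gene positions came from GENCODE M21 on GRCm38, which held 99.5% of the identifiers, and promoters from RefSeq (GRCm38.p6), with entries for 7 of the 10 members. Groups came from the sample labels.

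Genes at 0.5 FPKM or more in at least 4 libraries were compared as log2(FPKM + 1) in limma 3.58.1 (R 4.3.3), using a variance trend and Benjamini-Hochberg adjustment over 15150 genes. The count test named in the study's methods could not be used, since no counts were at hand. A two-sided exact permutation test of each member was added (smallest p 0.0286). The code was tested on simulated data. Named are all members, list genes at an unadjusted p under 0.05 or otherwise up to 2 of the most abundant, and the 3 genes most alike each member, of which fewer are printed. The members and the 19 lists were chosen with earlier results of these data known. Alternatives were another pseudocount (0.1), 2 other filters, 2 scalings, array weights, the mouse number as a block and each library left out. Leaving out both libraries that stand apart was added after seeing the data. Where no label states separate housing or litters, p-values measure the spread between these mice. The result of 1 gene of the KEGG list is not reported here.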

Additional observations from a re-analysis of the deposited data

Results flagged for a closer look

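In 3 of 22 groups of 4 mice the highest or lowest value lay far from the rest, with a gap to its neighbour, as a share of the group's range on the log2(FPKM + 1) scale, above Dixon's 95% critical value. Chance alone gives about 1 in 20. *Areg* in the vehicle group was highest in mouse 5, at 0.616 FPKM against 0.0001 to 0.0196 in the other 3, with a gap of 0.96 of the range. *Ereg* in the vehicle group was likewise highest in mouse 5, at 0.0596 FPKM with the other 3 at the floor, so that the gap was the whole range (1.0). With 3 values tied this ratio is fixed whatever the other value is, so it is no sign of an unusual mouse and leaves 2 groups to set against chance. *Egfr* in the rFGF4 group was highest in mouse 1, at 7.87 FPKM against 4.36 to 4.76, with a gap of 0.859. These are the mice that stand apart on the first principal component.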

How the results depend on the processing

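Over 19 results and 295 alternative values, 223 kept their direction and their side of the threshold or stayed close to the reported value, 72 did not and 20 changed sign. The cause was not tested. Fold changes are on the log2 scale.

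Leaving out 1 library at a time gave 188 (without rFGF4 mouse 2) to 580 (without rFGF4 mouse 5) genes at the study's threshold, 434 without vehicle mouse 5, and 0 to 1 at an adjusted p under 0.05. Fold changes ranged from -0.80 to 0.15 for *Egf*, 0.33 to 0.79 for *Hbegf*, 0.32 to 1.10 for *Areg*, -0.27 to 0.11 for *Btc*, 0.083 to 0.31 for *Tgfa*, -0.11 to 0.13 for *Egfr*, 0.054 to 0.26 for *Erbb2*, 0.44 to 0.64 for *Erbb3* and -0.32 to 0.053 for *Erbb4*, and the difference for *Ereg* from 0.19 to 0.35. *Egf*, *Egfr*, *Erbb4*, *Btc* and relative *Egf* changed sign without rFGF4 mouse 1, and *Btc* also without rFGF4 mouse 3 or vehicle mouse 2 or 3. The 4 pathway lists gave 0 (without vehicle mouse 2 or 4) to 8 (without rFGF4 mouse 5) genes at an unadjusted p under 0.05, 0 to 4 at the study's threshold and medians of 0.17 to 0.28. The KEGG list gave 2 to 11 (without rFGF4 mouse 5), 1 to 6 and 0.075 to 0.22. Over all 15150 genes, an unadjusted p under 0.05 was reached by 1430 without rFGF4 mouse 5. It was reached by 498 and 501 without vehicle mice 2 and 4. *Egf* relative to the distal markers ranged from -0.51 to 0.11.

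Array weights gave 496 genes at the study's threshold, *Hbegf* at 0.67 (limma, unadjusted p = 0.0399) and *Areg* at 0.64 (limma, unadjusted p = 0.0432), *Egfr* at -0.057, and 13 and 5 genes in the 4 lists and in the KEGG list alike (unadjusted p under 0.05, then the study's threshold). In that fit 1817 of 15150 genes were at an unadjusted p under 0.05, against 700 in the main fit. Scaling to an equal sum over nuclear genes moved the median of all genes to 0.19 and gave 458 genes at the threshold, 396 higher and 62 lower against 165 and 67, *Btc* at 0.061, *Ereg* at 0.63, 6 genes at an unadjusted p under 0.05 in the 4 lists, and 7 and 2 in the KEGG list. Median-ratio scaling gave 95 higher and 82 lower, *Egfr* at -0.056, *Erbb3* at 0.41 (unadjusted p = 0.0359), 0 genes of the 4 lists at the threshold, and 2 and 0 in the KEGG list. A pseudocount of 0.1 gave 348 genes at the threshold, *Btc* at 0.040, *Ereg* at 1.27, *Areg* at 2.06, *Erbb4* at -0.64 and *Tgfa* at 0.38. No filter gave 1 gene at an adjusted p under 0.05 and 8 KEGG genes at an unadjusted p under 0.05. Over all genes, an unadjusted p under 0.05 was reached by 1145 of 15115 scaled over nuclear genes and 704 of 15150 under median-ratio scaling. It was reached by 1233 of 30244 without a filter and 860 of 15150 without both libraries that stand apart. Without both libraries that stand apart, *Egfr* was at -0.10, *Erbb4* at 0.017 and relative *Egf* at 0.059, and the 4 lists gave 5 and 3.

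Mouse numbers 2, 3 and 5 occur in both groups, and the deviations of same-numbered mice from their group means correlated at -0.229, -0.155 and -0.393, so they were not taken as pairs, and none of these rFGF4 mice correlated best with the vehicle mouse of its own number. With the number as a replicate block, 263 genes reached the study's threshold and 394 an unadjusted p under 0.05, *Egf* was at 0.28, *Btc* at 0.035, *Egfr* at -0.11, *Erbb4* at 0.029, *Erbb3* at 0.46 (unadjusted p = 0.056) and relative *Egf* at 0.25, and the 4 lists gave 1 gene and the KEGG list 0 and 0. In this fit *Hbegf* was at 0.20, *Areg* at 0.26, *Tgfa* at 0.0032 and *Erbb2* at 0.026. With no counts, what depth limits is unknown, and it bears most on *Areg* and *Ereg*.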
